A study of Mus musculus with 4 samples.

Results

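The D cyclins, the inhibitors of cyclin-dependent kinases and the Rb family decide together whether a cell leaves the cell cycle, and 10 of their genes are described here in cells sorted from the embryonic mouse retina. The genes are Ccnd1, Ccnd2 and Ccnd3 for the D cyclins, Cdkn1a, Cdkn1b and Cdkn1c for the Cip/Kip inhibitors, Cdkn2c and Cdkn2d for the INK4 inhibitors, and Rb1 and Rbl1 for the pocket proteins. They were chosen by name, with earlier results of these data known. A gene took the array feature (probe set) whose annotation gives its symbol alone. Where there were several such features, it took the one with the highest mean over the 4 arrays. Of the 10 genes 9 had such a feature, out of 18920 genes on the array. The exception was Cdkn1a, whose feature also carries the symbol of another gene, so it is given no value.

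The EGFP-positive group and the EGFP-negative group were both sorted from dissected retinas of BAC-Crx-EGFP transgenic mice on a 129Sv/Ev background at embryonic day E17.5, and the study asks how their expression profiles differ. Both groups therefore carry the transgene, and they differ in whether the reporter was seen in the cell. BAC-Crx-EGFP denotes a bacterial artificial chromosome in which enhanced green fluorescent protein is tied to the regulatory DNA of Crx, the homeobox gene of photoreceptor precursors. Each group had 2 replicates on 1 array each, and the labels leave the source of each replicate unstated, so the p-values reflect the spread of these 4 samples, part or all of which may be technical.

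A cyclin D protein pairs with the kinase CDK4 or CDK6, and the pair phosphorylates Rb and its relatives. Unphosphorylated pocket proteins hold E2F transcription factors, so genes of DNA replication stay silent until the kinase acts. INK4 proteins bind CDK4 and CDK6 and keep cyclin D away, while Cip/Kip proteins bind whole cyclin-kinase complexes. In the mouse retina Ccnd1 is the main D cyclin of dividing progenitors, Cdkn1b and Cdkn1c take part in cell cycle exit of different precursors, and Rb1 is needed for rods to form and stay out of division.

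Photoreceptor precursor markers differed between the fractions in the direction of the labels. All 11 photoreceptor precursor markers had a higher mean in the positive fraction and 7 passed the test used throughout, limma with Benjamini-Hochberg adjustment over all 22431 features and a threshold of 0.05. Among the 7 that passed, Rbp3, of the matrix between photoreceptors, had the largest log2 difference, 4.37 ± 0.19 (SE, n = 2 arrays per fraction, limma adjusted p = 0.00576). Next came Crx (3.66 ± 0.19), and Gnb3 (2.86 ± 0.13) and Gnat2 (2.82 ± 0.29), both parts of cone transducin. Thrb differed by 3.14 ± 0.56 without passing (limma adjusted p = 0.0826), and read 785.9 and 2722.1 in positive replicates 1 and 2. Of 7 measured progenitor markers 5 had a lower mean, and Sox2 passed with a log2 difference of -1.36 ± 0.10 (limma adjusted p = 0.0119). Fabp7, a fatty acid-binding protein counted here among progenitor markers, went the other way (2.76 ± 0.11, adjusted p = 0.00576). Of 6 amacrine cell markers 2 passed, both higher, and the list summed to intensities of 3954.7 and 4373.2 in positive and 2364.9 and 2341.2 in negative replicates. Of 42 measured markers for 9 other cell types limma called none, where 0.963% of all features were called. At an unadjusted p under 0.05 there were 5 higher and 2 lower, where 9.34% and 9.83% of all features were higher and lower. The list medians of the log2 difference ran from -0.89 for Müller glia to 0.23 for horizontal cells, so the lack of calls does not show that these cell types are alike in both fractions. The fits without negative replicate 1 and without negative replicate 2 called 0 features, with 2346 and 3134 features at an unadjusted p under 0.05.

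Ccnd1 had a lower mean in EGFP-positive cells, without passing the test. Its feature (10569646, Entrez gene 12443) read 6046.0 and 3384.2 in EGFP-positive replicates 1 and 2, against 9462.8 and 8734.1 in EGFP-negative replicates 1 and 2, as normalised intensity on a linear scale. Both positive arrays lay below both negative ones, and the positive arrays differed more from each other than the negative arrays did. As log2 intensity the means were 12.14 ± 0.59 in positive and 13.15 ± 0.08 in negative cells (SD, n = 2 each). The log2 difference was -1.01 ± 0.28 (SE), or 2.01-fold higher intensity in negative cells, with a 95% interval from -1.71 to -0.30, and it did not pass the test (limma adjusted p = 0.148). Leaving out EGFP-positive replicate 1 gave -1.43 (limma adjusted p = 0.0099), and leaving out EGFP-positive replicate 2 gave -0.59. Such a fit has 1 positive array and takes its spread from the 2 negative arrays and limma's prior over all features, so the lone array is assumed to vary as they do, although the SD of Ccnd1 was 0.59 in positive and 0.08 in negative cells. The same holds below wherever a positive array is left out. Ccnd1 was among the brightest features, its mean over the 4 arrays lying at the 99.8th percentile of all features.

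In bulk RNA, fewer cells of a type and less RNA per cell cannot be told apart. The summed intensity of the progenitor markers was 9762.5 and 8568.3 in positive replicates 1 and 2, and 12479.6 and 11218.8 in negative replicates 1 and 2, with no marker at 0. This sum holds Pax6, at 3497.4 and 3890.1 in positive and 3204.7 and 3255.4 in negative replicates. It also holds Fabp7, at 1280.1 and 1369.1 in positive and 204.2 and 186.9 in negative replicates. Both were higher in positive cells, unlike the other measured progenitor markers, so the sum differs less between fractions than those markers do. The summed intensity of 5 Müller glia markers, several of which progenitors share, was 4310.1 and 2692.2 in positive and 7547.6 and 5366.8 in negative replicates. Both sums were lowest on positive replicate 2, the array with the lowest Ccnd1 reading, and their part in the Ccnd1 result was not tested.

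Ccnd2 and Ccnd3, the other D cyclins, showed small differences of opposite sign. Ccnd2 read 343.1 and 336.4 in positive cells, against 304.4 and 316.8 in negative cells. Its log2 difference was 0.13 ± 0.10 (limma adjusted p = 0.585), with a 95% interval from -0.12 to 0.38. The Ccnd2 fractions did not overlap, with the positive arrays above, although the gap between them was narrow. Ccnd3 read 320.9 and 374.4 in positive cells, against 375.2 and 397.3 in negative cells. Its log2 difference was -0.16 ± 0.12 (limma adjusted p = 0.595; -0.27 to -0.04 with any 1 array left out), with an interval from -0.46 to 0.15, and positive replicate 2 all but met negative replicate 1. Neither interval holds a difference as large as the one measured for Ccnd1, but the differences between the cyclins were not tested.

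**Figure D1:**
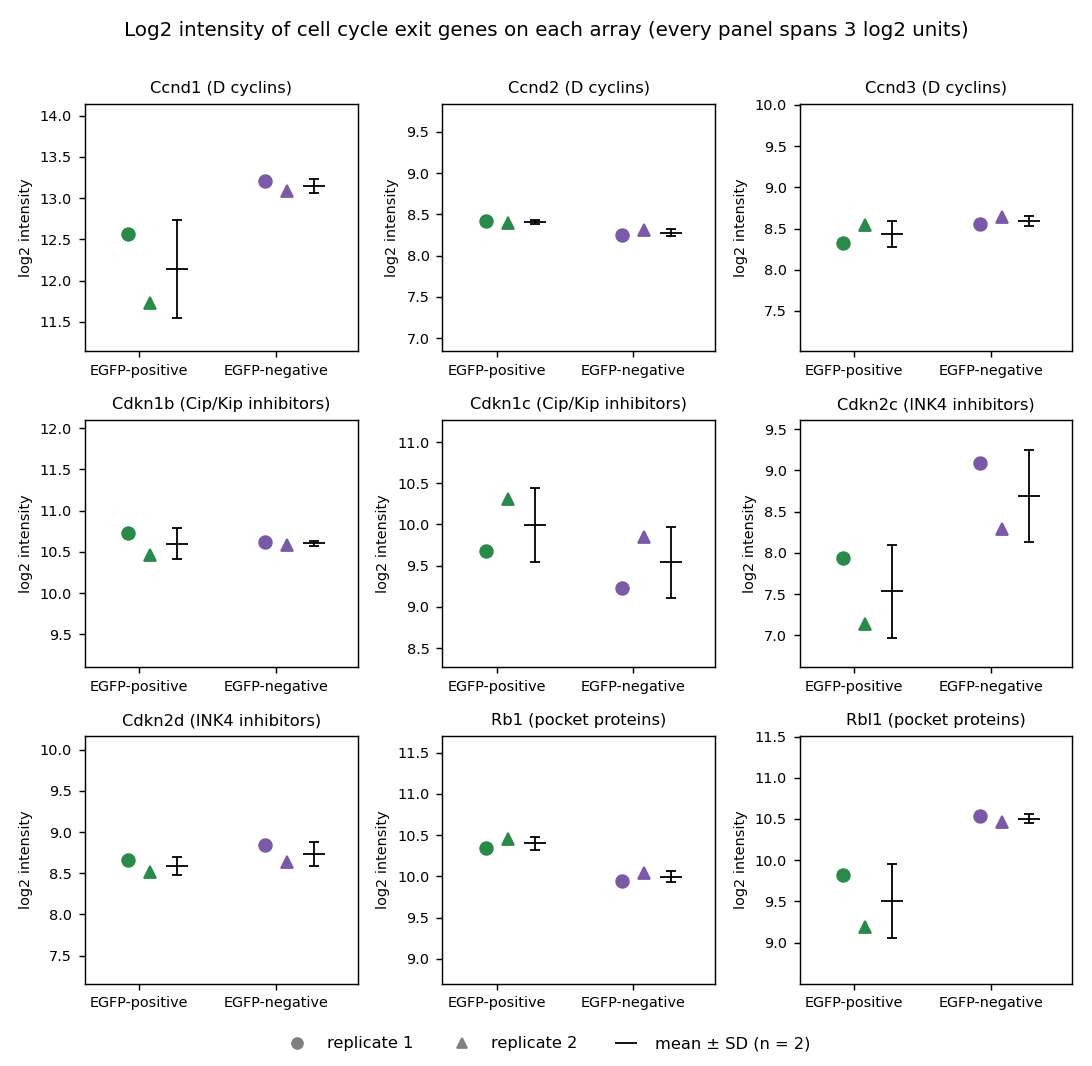
Log2 intensity (vertical axis, 3 log2 units in every panel) of the 9 genes on each array, with EGFP-positive arrays on the left and EGFP-negative arrays on the right of each panel; circles are replicate 1, triangles replicate 2, and bars the mean ± SD (n = 2). Ccnd1, Cdkn2c and Rbl1 lie lower on both positive arrays, Rb1 lies slightly higher, and Cdkn1c and Cdkn2c differ between replicates in both fractions.

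Among the Cip/Kip inhibitors, Cdkn1b, which encodes p27, had nearly the same mean in both fractions. Its brighter feature (10542310) read 1701.4 and 1411.7 in positive cells, against 1574.3 and 1532.5 in negative cells. The negative arrays lay between the positive ones. The log2 difference was -0.003 ± 0.13 (limma adjusted p = 0.995), with a 95% interval from -0.33 to 0.32. The sign turned with the arrays used: leaving out positive replicate 2 gave 0.13, leaving out positive replicate 1 gave -0.14, and centring the arrays on their medians gave 0.02. A second feature of Cdkn1b (10542317) read 426.3 and 410.7 in positive cells and 441.5 and 423.0 in negative cells, a log2 difference of -0.05 ± 0.10 (limma adjusted p = 0.887). Both features thus gave intervals that span 0, the second from -0.30 to 0.21.

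Cdkn1c, which encodes p57, differed more between replicates than between fractions. It read 818.2 and 1272.1 in EGFP-positive replicates 1 and 2, against 602.7 and 921.1 in EGFP-negative replicates 1 and 2. In each fraction replicate 2 was the higher one, by 0.64 in positive and 0.61 in negative cells on the log2 scale. Positive replicate 1 lay below negative replicate 2, so the fractions overlapped. Between fractions Cdkn1c differed by 0.45 ± 0.29 on the log2 scale (limma adjusted p = 0.499), with a 95% interval from -0.28 to 1.18. It was 0.15 without negative replicate 1, 0.76 without negative replicate 2, 0.77 without positive replicate 1 and 0.14 without positive replicate 2. Positive replicate 1 exceeded negative replicate 1 by 0.44, and positive replicate 2 exceeded negative replicate 2 by 0.47.

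The INK4 inhibitor Cdkn2c, which encodes p18, had the widest difference among the 9 genes with all 4 arrays, and a lower mean in EGFP-positive cells. Without EGFP-negative replicate 1 its log2 difference was -0.76, smaller in size than that of Ccnd1 (-0.95) and Rbl1 (-0.96) in the same fit. It read 244.3 and 140.6 in EGFP-positive replicates 1 and 2, against 543.7 and 314.2 in EGFP-negative replicates 1 and 2. Both positive arrays lay below both negative ones, and in both fractions replicate 2 was the lower one, by 0.80 and 0.79 on the log2 scale. The log2 difference was -1.16 ± 0.36 (limma adjusted p = 0.178), or 2.23-fold higher intensity in negative cells, and its 95% interval ran from -2.07 to -0.25. Leaving out positive replicate 1 gave -1.56 (limma adjusted p = 0.0492, with the spread from the negative arrays and the prior), leaving out positive replicate 2 gave -0.76, and leaving out negative replicate 2 gave -1.55.

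Cdkn2d, which encodes the INK4 protein p19, stayed close to its level in negative cells. It read 405.5 and 364.4 in positive cells, against 458.7 and 397.5 in negative cells, and the fractions overlapped. It differed by -0.15 ± 0.12 on the log2 scale (limma adjusted p = 0.618; -0.25 to -0.05 with any 1 array left out), with an interval from -0.47 to 0.16. In retina and brain of the mouse Cdkn2d is known from neurons that have stopped dividing.

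**Figure D2:**
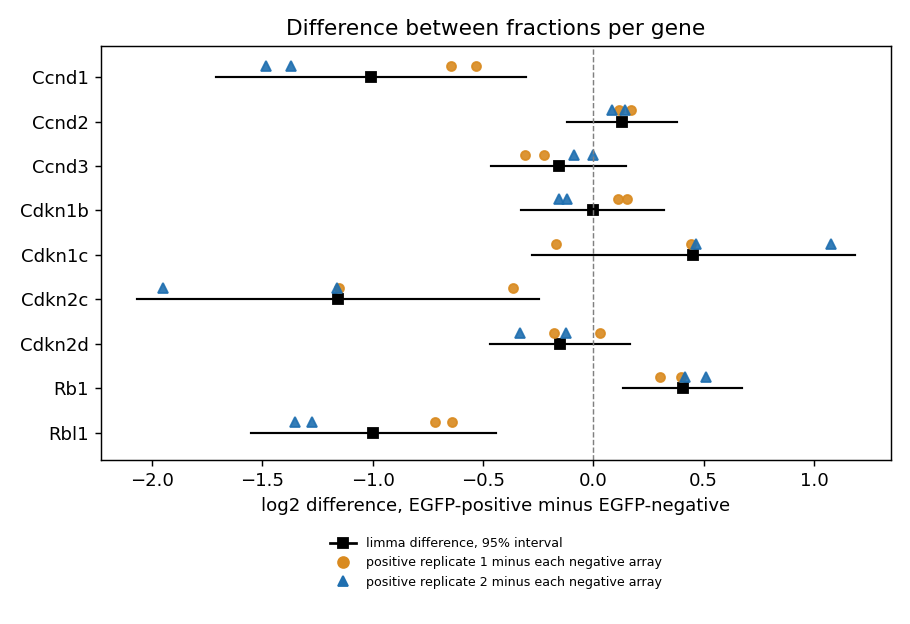
Log2 difference, EGFP-positive minus EGFP-negative (horizontal axis), for each of the 9 genes; squares and black lines are limma's difference and 95% interval, and coloured points are each positive array minus each negative array (circles for positive replicate 1, triangles for positive replicate 2). The intervals of Ccnd1, Cdkn2c, Rbl1 and Rb1 leave out 0, and for each of these genes the triangles lie further from 0 than the circles, by a narrow gap for Cdkn2c.

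The pocket protein genes differed in opposite directions. Rb1, whose product is the retinoblastoma protein, read 1301.6 and 1406.9 in positive cells, against 988.1 and 1056.0 in negative cells. Both positive arrays lay above both negative ones, and replicates were close, with an SD of log2 intensity of 0.08 in positive and 0.07 in negative cells. The log2 difference was 0.41 ± 0.11 (limma adjusted p = 0.137), or 1.32-fold, with a 95% interval from 0.14 to 0.68. It ranged from 0.35 to 0.46 when any 1 array was left out.

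Rbl1, which encodes p107 and is itself a known target of E2F factors, read 906.0 and 583.0 in EGFP-positive replicates 1 and 2, against 1487.9 and 1412.6 in EGFP-negative replicates 1 and 2. Both positive arrays lay below both negative ones, and positive replicate 2 was the lowest. On the log2 scale the fractions differed by -0.996 ± 0.22 (limma adjusted p = 0.104), or 1.99-fold higher intensity in negative cells, and the 95% interval ran from -1.55 to -0.44. Leaving out positive replicate 1 gave -1.31 (limma adjusted p = 0.0110), and leaving out positive replicate 2 gave -0.68. Between the positive arrays the SD of Rbl1 was 0.45, against 0.05 between the negative arrays on which that p-value rests. Rbl2, the remaining pocket protein gene, differed by 0.07 ± 0.18 (limma adjusted p = 0.917) and was picked with its values known.

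The promoter of Rbl1, named above as a known target of E2F factors, is shown here and was picked with the gene's values known. The window is chr2:157204485-157204784 on the minus strand of GRCm38.p6, from RefSeq, covering 250 bases before the gene's start and 50 after it. Capitals mark the match to an E2F motif.
Rbl1: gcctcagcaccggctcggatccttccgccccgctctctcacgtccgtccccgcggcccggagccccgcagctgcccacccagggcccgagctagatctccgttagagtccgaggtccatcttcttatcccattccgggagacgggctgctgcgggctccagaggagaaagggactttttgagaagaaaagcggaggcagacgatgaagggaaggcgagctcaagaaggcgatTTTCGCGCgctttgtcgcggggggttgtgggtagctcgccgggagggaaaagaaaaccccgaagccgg
The match TTTCGCGC lies on the gene's strand and begins 18 bases before the start. The motifs searched on both strands were TTTCCCGC, TTTGGCGC, TTTCGCGC and TTTGCCGC, and no other match overlaps this one. Of 32851 promoter windows of the same length 744, or 2.26%, hold at least 1 of them, and 0.323% hold TTTCGCGC. The table of promoters holds 9 windows for 6 of the 10 genes (Ccnd3, Cdkn1a, Cdkn1b, Cdkn2c, Cdkn2d and Rbl1), and the Rbl1 window was the 1 with a match. Of 14 listed replication genes with a window, 7 held a match. A match is a description of the letters and not of a bound factor, and a part of E2F factors in the Rbl1 difference was not tested.

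By limma none of the 9 genes passed the threshold in either direction, where 0.963% of all features did (0.82% higher and 0.143% lower). At an unadjusted p under 0.05 there were 4 of the 9, with Rb1 higher and Ccnd1, Cdkn2c and Rbl1 lower, where 19.2% of all features were at that level. The fractions did not overlap for 6 of the 9, with 2 above and 4 below in positive cells, where 47.6% of all features did not overlap (22.3% above and 25.3% below), and with 9 genes nothing is read from this share. The median log2 difference of the 9 genes was -0.15, beside -0.01 over all features. For 4 of the 9 genes (Ccnd2, Ccnd3, Cdkn1b and Cdkn2d) the difference was under 0.2 in size. With all 4 arrays kept, the other limma settings tried also called none of the 9, apart from the fit with the replicate number in the model. That fit called 5 of the 9, where it called 2877 of the 22431 features. The labels do not say what a replicate number shares. The fits with 1 array left out are given with the other alternatives.

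The replicates of a fraction differed in a way that varied from gene to gene. Cdkn2c and Cdkn1c shifted between replicates alike in both fractions, as given above. Ccnd1 was 0.84 lower in replicate 2 than in replicate 1 among positive arrays on the log2 scale (a shift of -0.84), while the shift among negative arrays was -0.12. Rbl1 had shifts of -0.64 in positive and -0.07 in negative cells. The other 5 genes shifted by 0.27 or less in size in either fraction. Over the 14 replication genes described below, the median shift was -0.66 in positive and -0.11 in negative cells, and over 8 ganglion cell markers it was 0.79 in positive and 1.15 in negative cells. Whether a different mix of cells on the replicates has a part in these shifts was not tested.

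**Figure D3:**
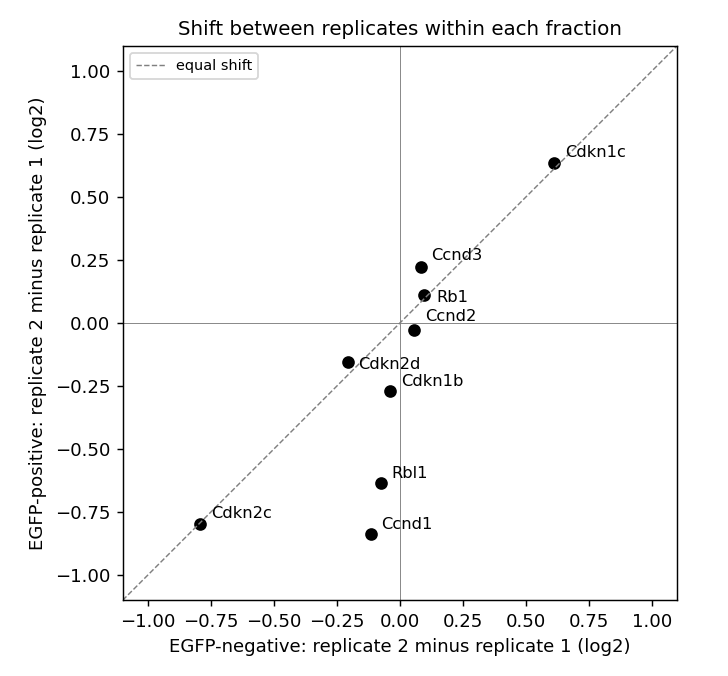
Log2 intensity of replicate 2 minus replicate 1 in EGFP-positive cells (vertical axis) against the same shift in EGFP-negative cells (horizontal axis) for the 9 genes; the dashed line marks equal shifts. Cdkn1c and Cdkn2c lie near the line and far from 0, while Ccnd1 and Rbl1 lie below it, with shifts of -0.84 and -0.64 in positive cells.

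Genes that act with these regulators were mostly lower in mean in the positive fraction, and 1 of 88 passed the test. The 9 lists hold 97 symbols, of which 88 had a feature of their own. By limma 1 was called higher and 0 lower. At an unadjusted p under 0.05 there were 4 higher and 51 lower genes, where 9.34% and 9.83% of all features were higher and lower. Counts at that level for single lists below are to be read beside the same shares. The median log2 difference over the 88 genes was -0.57.

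The kinases and cyclins that act beside or after cyclin D had lower means throughout. All 11 genes in this list (Cdk4, Cdk6, Cdk2, Cdk7 and their cyclins and activators) had a negative log2 difference, with a median of -0.60. None was called by limma, and 8 had an unadjusted p under 0.05. Cdk2, the partner of cyclins E and A, differed by -1.13 ± 0.28 (limma adjusted p = 0.127), and Ccna2, the cyclin of DNA synthesis, by -1.05 ± 0.41 (adjusted p = 0.259). Without positive replicate 2 these values were -0.70 for Cdk2 and -0.44 for Ccna2, and without positive replicate 1 Ccna2 differed by -1.66. The partners of the D cyclins, picked with their values known, differed by -0.96 ± 0.31 for Cdk6 (adjusted p = 0.190) and -0.39 ± 0.12 for Cdk4 (adjusted p = 0.170).

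The E2F and DP genes, whose products the pocket proteins hold, had a median log2 difference of -0.51, with 9 of 10 below 0. None was called by limma, and 8 had an unadjusted p under 0.05, all lower. E2f8, a repressor that acts late in DNA synthesis, differed by -1.19 ± 0.49 (limma adjusted p = 0.277) and the activator E2f1 by -1.11 ± 0.32 (adjusted p = 0.160). Without positive replicate 2 they differed by -0.51 and -0.64, and without positive replicate 1 E2f8 differed by -1.88. E2f4, which pairs with p107 and p130 in resting cells, was the member above 0 and differed by 0.04 ± 0.12 (adjusted p = 0.932, picked with its values known).

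Replication genes known as E2F targets were lower in mean in all 14 measured cases, with a median of -1.15. None was called by limma, and all 14 had an unadjusted p under 0.05. Pcna, the sliding clamp of DNA polymerase, differed by -1.38 ± 0.25 (limma adjusted p = 0.0836) and Mcm6, of the replicative helicase, by -1.30 ± 0.39 (adjusted p = 0.170). The median of the list became -0.69 without positive replicate 2 and -1.51 when positive replicate 1 was left out, and Mcm6 differed by -0.70 without positive replicate 2. Mitotic cyclins and kinases had a median of -0.96 over 9 genes. None was called by limma and 6 had an unadjusted p under 0.05. The spindle checkpoint kinase Bub1 differed by -1.41 ± 0.35 (limma adjusted p = 0.125), and the mitotic cyclin Ccnb2 by -1.24 ± 0.26 (adjusted p = 0.0979). This median became -0.53 without positive replicate 2 and -1.53 when positive replicate 1 was left out, and Bub1 differed by -0.90 without positive replicate 2. Beside these medians, the log2 difference was -1.16 for Cdkn2c, -1.01 for Ccnd1 and -0.996 for Rbl1.

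The list of genes for the DREAM and MuvB complexes, MYB factors among them, had a median of -0.19 over 6 genes. Of these complexes DREAM, which holds a pocket protein, represses cell cycle genes in resting cells. None was called by limma and 2 had an unadjusted p under 0.05, both lower, where 9.83% of all features were lower at that level. They were Mybl2, the MYB factor of dividing cells (-1.06 ± 0.17, limma adjusted p = 0.0693), and Lin54, the DNA-binding subunit (-0.38 ± 0.11, adjusted p = 0.166).

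Of 13 genes for ubiquitin ligase parts that act on cyclins and inhibitors none was called by limma, and at an unadjusted p under 0.05 there were 2 higher and 6 lower, with a median of -0.27 (-0.16 without negative replicate 1 and -0.17 without positive replicate 2). Fbxo5, which holds back the anaphase-promoting complex, differed by -1.34 ± 0.43 (limma adjusted p = 0.188; -0.83 without negative replicate 1 and -0.90 without positive replicate 2), and Dtl, which marks Cdt1 and p21 for breakdown, by -1.28 ± 0.22 (adjusted p = 0.0798). Skp2 and Cks1b, which together direct the breakdown of p27, differed by -0.79 ± 0.12 (limma adjusted p = 0.0677) and -0.80 ± 0.16 (adjusted p = 0.0885), against -0.003 for the mRNA of Cdkn1b. Ambra1, a receptor of the ligase that removes D cyclins, differed by 0.47 ± 0.11 (limma adjusted p = 0.120). These last 3 genes were picked with their values known.

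Upstream regulators of the D cyclins had a median of -0.58 over 10 genes, with none called by limma and 6 lower at an unadjusted p under 0.05. Id3, an inhibitor of bHLH factors, differed by -1.33 ± 0.26 (limma adjusted p = 0.0874), and Gli1, a target and effector of Hedgehog signalling, by -1.17 ± 0.25 (adjusted p = 0.0993). Mycn, which drives growth of retinal progenitors in the mouse, was among the 2 genes above 0 and differed by 0.30 ± 0.12 (adjusted p = 0.262, picked with its values known).

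Among other inhibitors and pocket proteins, 3 of 4 genes had a negative difference and none was called by limma. At an unadjusted p under 0.05 there was 1 lower gene, where 9.83% of all features were lower. Cdkn3, a phosphatase of cyclin-dependent kinases that dividing cells express, differed by -0.78 ± 0.27 (limma adjusted p = 0.211), or -0.44 without positive replicate 2, and Cdkn2a by -0.11 ± 0.10 (adjusted p = 0.660).

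The p53 target genes, listed because p53 is the best-known activator of Cdkn1a, had a median of 0.11 over 11 genes, with 6 above 0. The median was 0.04 without positive replicate 2, 0.06 without negative replicate 2 and 0.17 without positive replicate 1. Trp53inp1, a p53-induced nuclear protein, read 1114.1 and 1398.2 in positive cells, against 589.4 and 583.6 in negative cells. It was higher by 1.09 ± 0.14 on the log2 scale and was the 1 gene of these lists that passed (limma adjusted p = 0.0474). Its limma adjusted p was 0.0584 with a variance trend and 0.0515 with a pseudocount of 16, both above the threshold, and it did not pass without positive replicate 2. The fits without a negative array called no feature at all, so they cannot decide on this gene. Each positive array minus each negative array gave 0.92 to 1.26 on the log2 scale. At an unadjusted p under 0.05 there were 2 of the 11 genes, both higher, and none lower, where 9.34% and 9.83% of all features were higher and lower. With 11 genes nothing is read from this count. Beside Trp53inp1 the other was Btg2, an antiproliferative gene (0.64 ± 0.15, limma adjusted p = 0.121, picked with its values known).

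**Figure D4:**
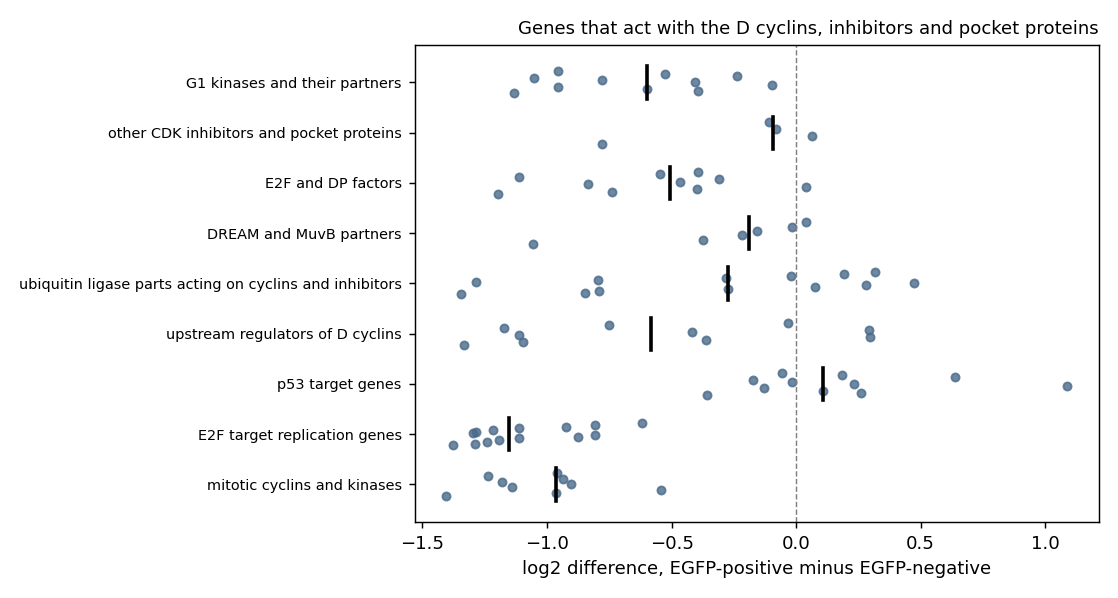
Log2 difference, EGFP-positive minus EGFP-negative (horizontal axis), of each gene in the 9 lists of genes that act with the D cyclins, inhibitors and pocket proteins; points are genes and black bars the list medians. Replication genes (median -1.15) and mitotic genes (median -0.96) lie below 0 throughout, and p53 target genes (median 0.11) lie around it.

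The genes whose pattern over the 4 arrays was most like that of Ccnd1 were Csrp1, which encodes a LIM domain protein, Dusp16, a phosphatase of MAP kinases, and Hmmr, by the root mean square difference between log2 values centred on each gene's mean, searched over 18920 genes. This difference was 0.027 for Csrp1 and Dusp16 and 0.030 for Hmmr. Hmmr, of the mitotic spindle, read 387.3 and 206.0 in positive cells, against 585.3 and 532.6 in negative cells. For Cdkn1b the nearest were Rprd1b (0.007), Vmn1r85 (0.008) and Robo1 (0.009). With 4 arrays many genes lie near any pattern, and the likeness is a description of these arrays.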

How the data were processed

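RNA of sorted retinal cells, 100 ng of total RNA per sample per the labels, was amplified with an Affymetrix whole-transcript kit and hybridised to 4 arrays. The deposited values are normalised intensity values, 1 column per array and 22431 features, made by the authors with RMA on genome build mm8, per the submitters' processing notes. An RMA version or a filter is not given in the sources used here. The linear scale was inferred from the values, which ran from 18.9 to 36625.2 with array medians of 218.4 to 222.9. RMA commonly gives log2 values. No value was 0 or negative, so log2 needed no pseudocount.

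Features were named by the platform annotation where it gave 1 symbol (20176 features, 18920 genes). EGFP-positive minus EGFP-negative was tested by lmFit and eBayes of limma 3.58.1 (R 4.3.3) over all 22431 features, two-sided, with Benjamini-Hochberg adjustment and a threshold of 0.05. The prior gave 3.26 of the 5.26 degrees of freedom. Log2 differences had a median SE of 0.12, and having 4 arrays limits the precision. The pipeline was run on simulated data with independent noise of the same SD for every feature and no shift shared by same-numbered arrays. Real features differ in spread, so this run cannot show how reliable the calls are here. In each list up to 4 called genes with the largest difference were named, or the 2 largest where none was called. Members and lists were chosen with earlier results of these data known. Listed genes that lacked a feature with their symbol alone were not used here. Alternatives covered normalisation, centring, variance model, low-value filter, pseudocount, features per gene, each array left out and a replicate block.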

Additional observations from a re-analysis of the deposited data

How the results depend on the processing

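With each of the 4 arrays left out in turn, limma called between 0 and 1429 features (0 to 667 higher and 0 to 762 lower), between 0 and 3 of the 9 genes and between 0 and 41 of the 88 genes that act with them, against 216 features (184 higher, 32 lower), 0 and 1 with all arrays. The 3 genes were Ccnd1, Cdkn2c and Rbl1, without EGFP-positive replicate 1. That fit holds 1 positive array and takes its spread from the 2 negative arrays and limma's prior, so its calls assume that the lone array varies as they do. The counts of 0 features came from the fits without either EGFP-negative array. With the replicate block, the replicate number added to the model, limma called 2877 of the 22431 features (1377 higher and 1500 lower). It called 51 of the 88 genes and 5 of the 9, counts to be read beside that share of all features. The 5 were Ccnd1 (limma adjusted p = 0.0221), Cdkn1c (0.0353), Cdkn2c (0.00456), Rb1 (0.0476) and Rbl1 (0.0153). This model fits a further term to the same 4 arrays, so its spread rests on fewer residual degrees of freedom than the main fit. The deviations of same-numbered arrays from their fraction means correlated at 0.481 across 22431 features, which are not independent. This is a hint from the data that the numbers pair the samples, and the labels do not say what a number shares. Features called lower numbered 21 with a variance trend and 51 with the mean of features per gene, and 0 of the 88 genes were called with a variance trend or a pseudocount of 16. The cause was not tested. The difference of Cdkn1b turned to 0.021 with arrays centred on their medians, and ranged from -0.14 without EGFP-positive replicate 1 to 0.13 without EGFP-positive replicate 2, with 0.016 without EGFP-negative replicate 1. The other 8 genes kept their direction under all 12 alternatives, but several of these could not have turned it. The variance models, the low-value filter and the replicate block leave a gene's difference as it was. For a gene whose fractions do not overlap, leaving out 1 array cannot turn the sign. The table holds no detection calls, so signal over background is not known for any of the 9 genes.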
